A study of Mus musculus with 4 samples.

Results

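Ccn1, Ccn2, Ankrd1, Amotl2, Lats2, Axl, Crim1, Ptpn14, Nuak2 and Tgfb2 are 10 genes that published work names as targets of the transcription co-activators YAP and TAZ. They were matched by symbol among the 55488 genes of the deposited single-cell count matrices, and 10 of 10 were found. Liver cells from 4 mice, 1 mouse and 1 library per genotype, were profiled with 10x Genomics 3′ chemistry to ask how loss of YAP, of TAZ or of both in the liver epithelium alters the cells of the organ. The wildtype mouse (WT) was genetically unmodified. The YAPKO mouse carried floxed alleles of Yap1, the TAZKO mouse floxed alleles of Wwtr1, the gene of TAZ, and the DKO mouse both, each with an albumin-promoter Cre. That promoter drives Cre in hepatocytes (HCs) and biliary epithelial cells (BECs), so the endothelial cells (ECs), hepatic stellate cells (HSCs), Kupffer cells (KCs), and other immune cells of each mouse keep intact alleles. None of the mice was treated, and the age of the sequenced mice was not stated.

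YAP and TAZ have no DNA-binding domain of their own and act on genes through the TEAD transcription factors. The LATS kinases phosphorylate both proteins, which holds them in the cytoplasm. Several targets, among them Amotl2, Lats2 and Ptpn14, encode proteins that hold YAP or TAZ back in turn, so the pathway can limit itself. In the liver, YAP is abundant in bile ducts and low in hepatocytes, and YAP and TAZ also act in endothelial and stellate cells.

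Values are listed in the order WT, YAPKO, TAZKO and DKO. The 4 libraries held 66259687, 85989454, 49022089 and 77411746 unique molecular identifiers (UMIs), which count captured transcripts. Cells were barcodes in which 500 to 6000 genes were seen and mitochondrial genes took up to 10% of UMIs, and they numbered 7155, 6275, 8638 and 8294, with medians of 4618, 7337, 3555.5 and 5952.5 UMIs per cell. Between libraries, the 6 pairs shared 9 to 26 barcode sequences among these cells, at most 0.363% of a library's cells. Clusters named from marker genes gave 2201, 1217, 2995 and 3033 HCs, 53, 32, 28 and 7 BECs, 1826, 1248, 1552 and 1192 ECs, 259, 108, 172 and 142 HSCs and 659, 774, 1273 and 898 KCs. Monocytes and macrophages other than KCs are called MACs, conventional dendritic cells cDCs, and plasmacytoid dendritic cells pDCs. Of 22 clusters, 5 stayed unnamed. Cluster 21, with 44 cells, was led by Igfbp6, Clec3b and Igfbp5. Of the listed markers, it had only Upk3b of mesothelial and Col1a1 of stellate cells among its leading genes. It is given by its number, since several of the 10 genes were high in it. The cluster named NK cells, with 2012 cells, was split by the finer clustering at resolution 0.8: 1440 cells with Cxcr6 and Cd3d in the lead were named T cells and 572 NK cells.

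Levels are given as CPM, the UMIs of a gene summed over the cells of a type in a library, per 1000000 UMIs of those cells. Intervals in parentheses are exact 95% intervals that cover counting error only. With 1 library per genotype, a difference between libraries and a difference between genotypes cannot be told apart, and no test between genotypes was possible. The 3 comparisons with WT also share the WT library, so a value that is high in that mouse moves all 3 ratios.

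The labelled deletions were checked in the cells where Cre acts. In HCs, Yap1 measured 21.5, 4.74, 47.2 and 4.55 CPM and Wwtr1 5.13, 13.2, 1.67 and 2.62 CPM, so each deleted gene was below its WT level in the libraries labelled for its deletion. In BECs, Yap1 measured 39.5, 13.4, 56.7 and 12.7 CPM, while Wwtr1 measured 69.1, 57.9, 63.4 and 25.4 CPM, near the WT level in TAZKO. In BECs with at most 4 EC markers, Wwtr1 had 6, 16, 2 and 1 UMIs and a level of 33.5, 43, 23 and 21.9 CPM. A 3′ tag can also count transcripts of a recombined allele, and 17 of the 28 TAZKO BECs carried at least 8 of 10 EC markers; the part of either in the BEC level was not tested.

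Transcripts of ECs were present in cells of other types, and several of the 10 genes are high in ECs. Of 681 HSCs, 588 (86.3%) held at least 8 of the 10 EC markers, against 1009 of 3604 KCs, 53 of 120 BECs and 2 of 1778 B cells. The 10 EC markers summed to 18874, 18149.6, 17499.8 and 17728 CPM in ECs, led by Clec4g or Ptprb. They summed to 11681, 12397, 8911 and 9213 CPM in HSCs, 2959, 3362, 3078 and 3860.3 CPM in KCs, 6207, 1386, 5632 and 3664 CPM in BECs and 63.5, 76.8, 86.7 and 85.5 CPM in HCs, with 0 of 10 markers at 0 in each of these. The cells still carried their own markers. The 11 HSC markers summed to 15940.1, 14455, 16359.5 and 13536 CPM in HSCs, led by Dcn, and the 7 BEC markers to 16113, 21236, 13819 and 14618 CPM in BECs, led by Spp1. The 8 KC markers summed to 26995, 26013, 22546 and 20517 CPM in KCs, led by Clec4f, C1qb, Cd5l and C1qb. ECs themselves held 607, 543, 459 and 412 CPM of the HSC markers, led by Hgf. A split into cells with at most 4 EC markers and cells with at least 8 was therefore added after the data were seen, and levels in the cells with few EC markers are given beside several of the others.

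TEAD proteins bind the sequence GGAATG, or CATTCC on the other strand. Of the 10 genes, 8 matched the RefSeq promoter table (GRCm38.p6), with 9 promoters. Ccn2 and Nuak2 had no entry. In the 250 bases before the RefSeq start, 6 of the 8 genes, or 6 of the 9 promoters, held the motif, against 12.6% of 32851 promoters in the table. The matches are shown in capitals with 10 bases on either side, since these genes share a published regulator; a match describes the letters and is not a bound site. Ankrd1 had 2 matches, while 1.02% of all promoters had more than 1, and Lats2 and Tgfb2 had none in these windows. The RefSeq starts can differ from those of the GENCODE coordinates given with each gene, and the windows of Amotl2, Ankrd1 and Lats2 lie inside the GENCODE genes.
Ccn1 chr3:145650073-145650098, minus strand: cgccaaccaaCATTCCtgagatgttt
Ankrd1 chr19:36120039-36120064, minus strand: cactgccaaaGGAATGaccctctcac
Ankrd1 chr19:36119952-36119977, minus strand: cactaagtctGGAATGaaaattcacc
Amotl2 chr9:102717729-102717754, plus strand: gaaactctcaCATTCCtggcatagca
Axl chr7:25788951-25788976, minus strand: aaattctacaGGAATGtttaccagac
Crim1 chr17:78200159-78200184, plus strand: ggcgggggggGGAATGaggtaggatg
Ptpn14 chr1:189728112-189728137, plus strand: tccccggacgCATTCCtggcccgccc

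**Figure D1:**
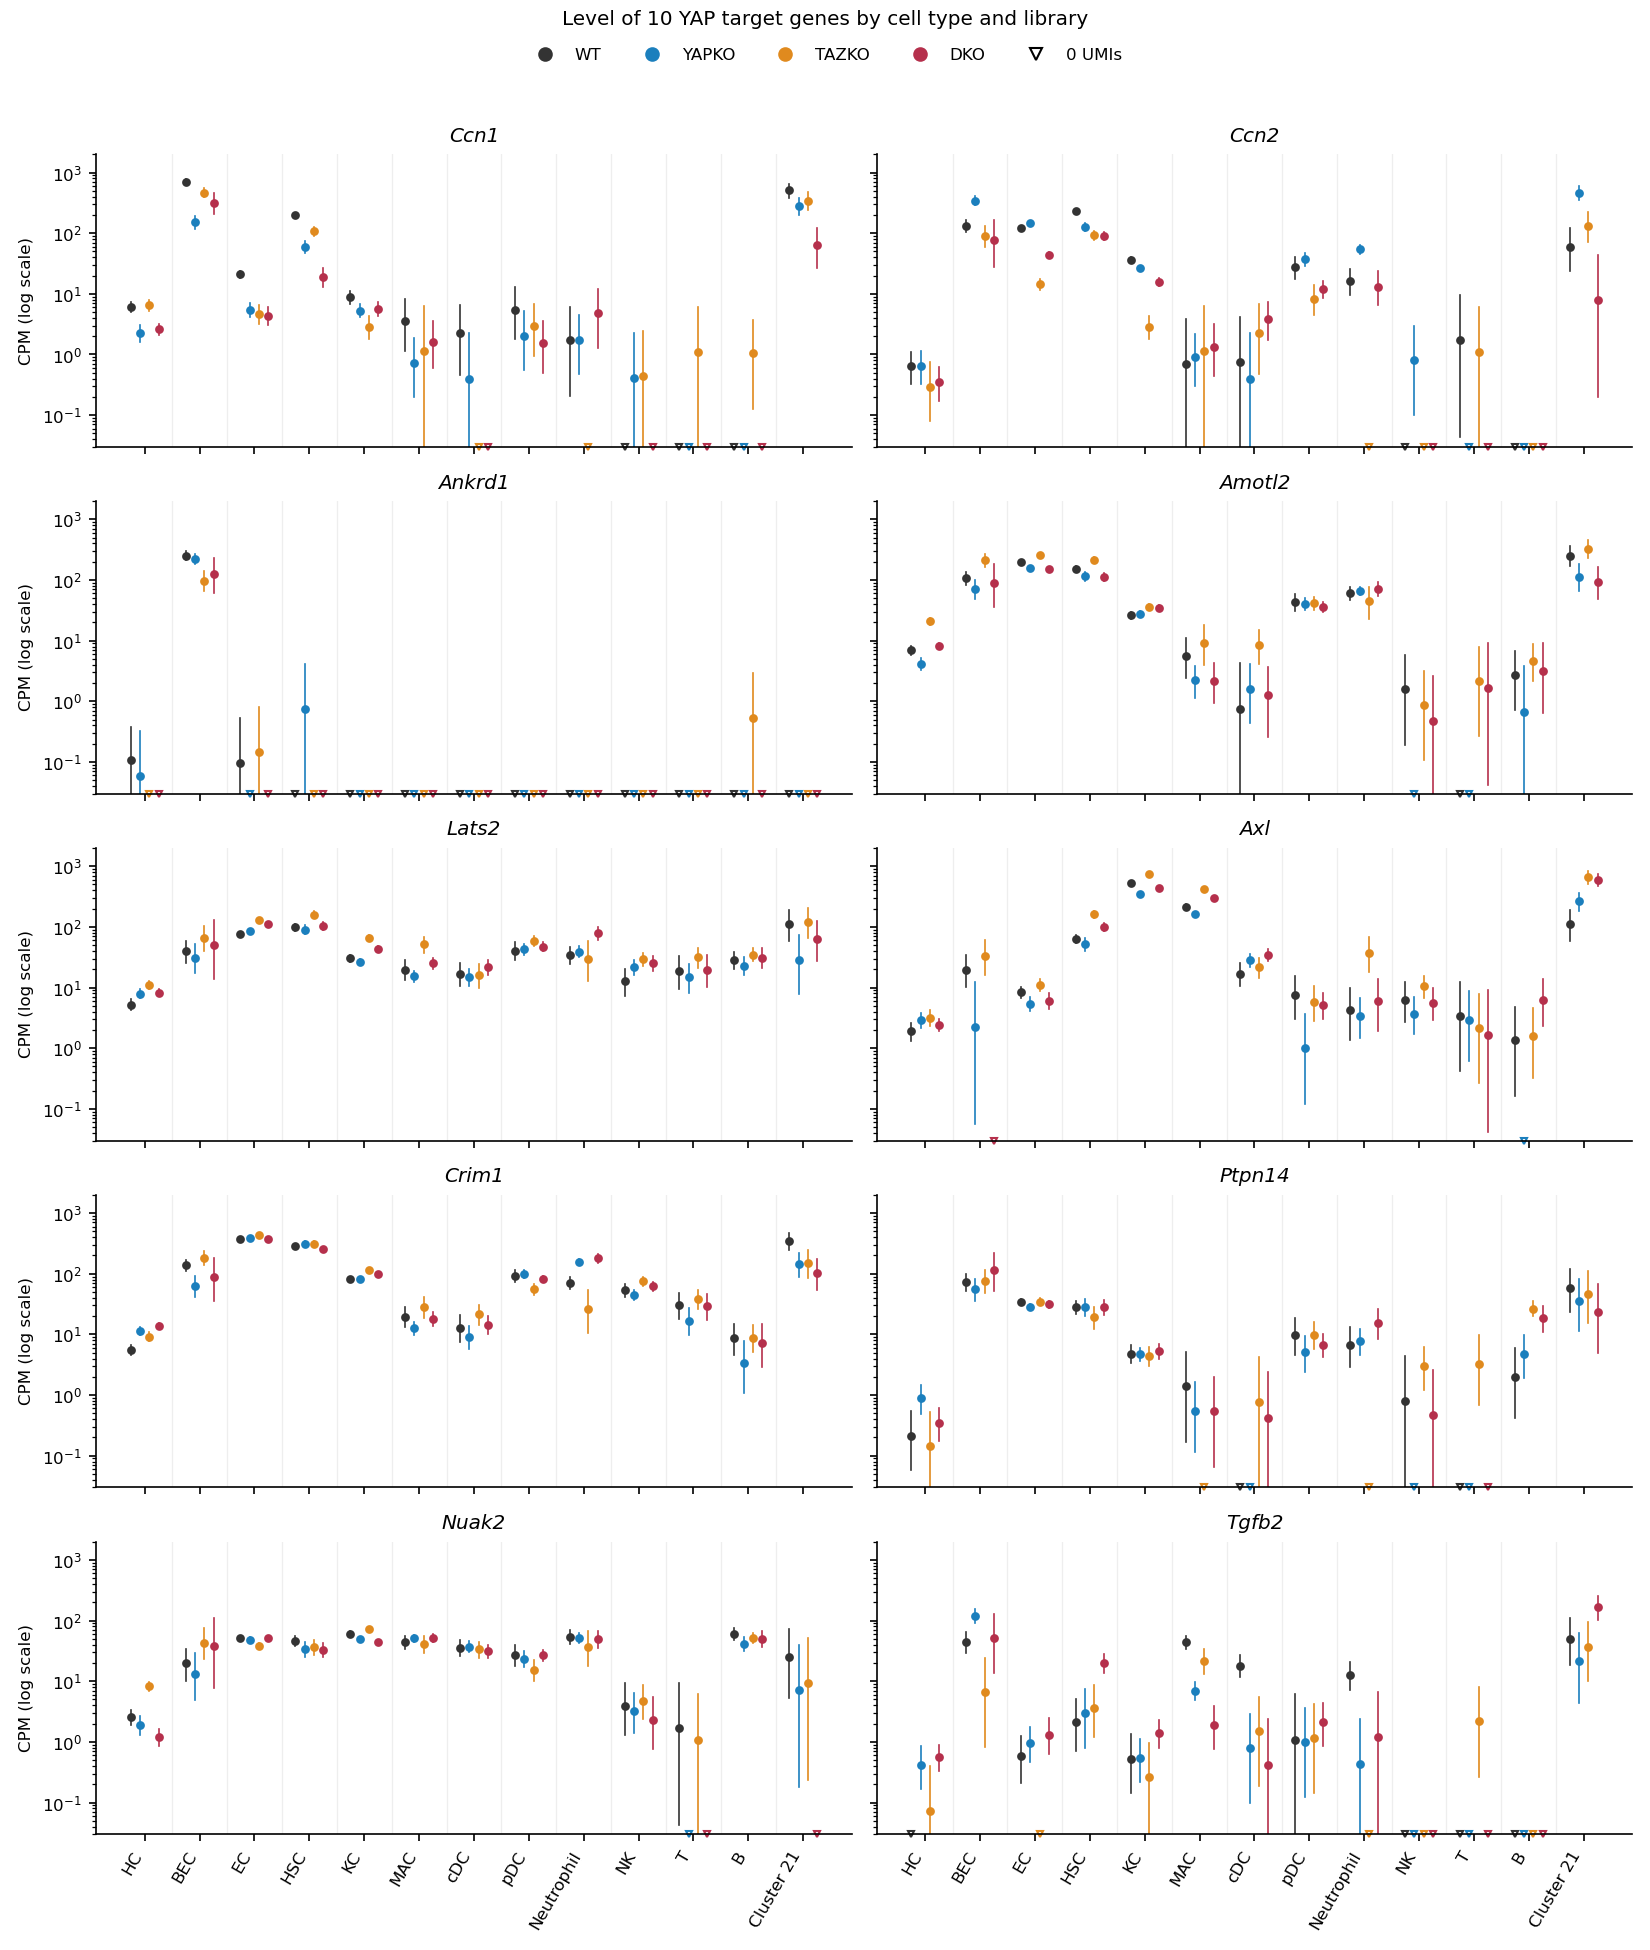
Level of each of the 10 genes (CPM, log axis) in 13 cell types and 4 libraries, with exact 95% Poisson intervals. Triangles at the bottom of the axis mark 0 UMIs, and their height is not a level or the bound of 3 UMIs. Ankrd1 stands out in BECs alone, Axl in KCs, MACs and cluster 21, and Nuak2 is low in HCs and in the clusters named NK and T cells.

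Ccn1 (ENSMUSG00000028195, chr3:145646976-145649981, minus strand, GRCm38) encodes a secreted matrix-associated protein that binds integrins. It measured 701, 152, 464 and 317 CPM in BECs, 506, 284, 345 and 62.7 CPM in cluster 21 and 199, 58.9, 108 and 18.7 CPM in HSCs. In ECs the level was 20.8, 5.46, 4.65 and 4.36 CPM, in KCs 8.69, 5.3, 2.87 and 5.64 CPM and in HCs 6.03, 2.28, 6.48 and 2.59 CPM. The order of cell types was thus BECs, cluster 21 and HSCs, with overlapping ranges over the 4 libraries, then KCs, ECs and HCs. HSCs did not overlap with KCs or HCs, but the lowest HSC level, in DKO, was below the EC level of WT. The 120 BECs, few as they are, held 26% of the Ccn1 UMIs in all kept cells, and the HSCs 28.6%. In B cells, Ccn1 had 0 UMIs in the WT, YAPKO and DKO libraries, which allows up to 2.01, 2.02 and 3.12 CPM, the level of 3 UMIs, and 1.04 CPM in the TAZKO library.

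Among the 6 types with the highest medians, WT was the highest library in BECs, cluster 21, HSCs, KCs and ECs, and HCs were the exception. In BECs, the log2 ratios to WT in YAPKO, TAZKO and DKO were -2.21 (-2.60 to -1.84), -0.60 (-0.88 to -0.32) and -1.14 (-1.79 to -0.56), with only 7 DKO BECs. The same ratios in HSCs were -1.76 (-2.12 to -1.41), -0.88 (-1.16 to -0.61) and -3.42 (-3.98 to -2.90). BECs, which the Cre targets, and HSCs, which it does not, were thus both lower than WT in the knock-out libraries. Among the 64 BECs with few EC markers the level was 1109.5, 159, 644 and 459.9 CPM, and among the 58 such HSCs, 19, 4, 21 and 14 cells, it was 639, 201, 96.1 and 29.9 CPM from 80, 9, 6 and 3 UMIs. Leaving out the cells with EC markers therefore raised the WT level in both types, and WT stayed the highest library.

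In HCs, Ccn1 ratios to WT were -1.40 (-1.97 to -0.87), 0.10 (-0.31 to 0.52) and -1.22 (-1.64 to -0.79). YAPKO and DKO, the libraries labelled for deletion of Yap1, were lower than WT, and the TAZKO interval spans 0. Under alternative settings the YAPKO value was past 2-fold in 9 of 9, with a range of -2.28 to -1.36, and the DKO value in 7 of 9, with a range of -1.30 to -0.83. HC depth moves with the same split, with medians of 2141, 5934, 1794 and 6133 UMIs per cell, and its part in the result was not tested. KCs gave -0.71 (-1.22 to -0.21), -1.60 (-2.37 to -0.89) and -0.62 (-1.15 to -0.10), with the lowest level in TAZKO, and KCs with few EC markers measured 7.67, 5.47, 1.35 and 6.85 CPM. In the latter the ratios were -0.49 (-1.18 to 0.21), -2.51 (-3.93 to -1.32) and -0.16 (-0.88 to 0.55), and the YAPKO and DKO intervals span 0. In ECs the ratios were -1.93, -2.17 and -2.26; the YAPKO value changed sign, to 0.67, when the limits of 500 and 6000 were read as UMIs, which kept 372 YAPKO ECs in place of 1248.

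Ccn2 (ENSMUSG00000019997, chr10:24595442-24598683, plus strand), also called connective tissue growth factor, is another secreted protein of the same family and promotes matrix production. Its level was 132, 345, 90.1 and 76.1 CPM in BECs, 234, 128, 92.8 and 89.8 CPM in HSCs and 121, 147, 14.4 and 43.1 CPM in ECs. In cluster 21 it was 59, 461, 131 and 7.83 CPM, in KCs 36.1, 26.3, 2.87 and 15.9 CPM, and in pDCs 27.3, 36.9, 8.18 and 11.9 CPM. Neutrophils had 16.1, 54.3, 0 and 13.1 CPM, where 0 UMIs in TAZKO allows up to 11.1 CPM. Nearly all of the UMIs in these 2 immune types lay in barcodes with EC markers. Of 25, 73, 14 and 39 UMIs in pDCs, those with at least 8 EC markers held 25, 63, 14 and 39, and pDCs with at most 4 held 0, 3, 0 and 0. Of 19, 126, 0 and 11 UMIs in neutrophils, those with at least 8 EC markers held 18, 125, 0 and 11, and those with at most 4 held 1, 1, 0 and 0. HCs had 0.634, 0.643, 0.291 and 0.348 CPM, and B cells had 0 UMIs in all 4 libraries, which allows up to 2.01, 2.02, 1.56 and 3.12 CPM. The ranges of BECs, HSCs, cluster 21 and ECs overlapped in that order of medians. With other types limited to cells with at most 4 EC markers, and ECs to those with few HSC and KC markers, the order changed. It was then HSCs, BECs, cluster 21 and ECs, and ECs no longer overlapped with KCs.

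Unlike Ccn1, Ccn2 was highest in the YAPKO library in BECs, where the ratios to WT were 1.39 (0.99 to 1.80), -0.55 (-1.23 to 0.10) and -0.79 (-2.28 to 0.39). Among BECs with few EC markers it measured 117, 387, 46 and 109 CPM, again highest in YAPKO. The UMIs of all BECs lay in 22, 12, 9 and 2 cells, or 41.5, 37.5, 32.1 and 28.6% of BECs, and after thinning each cell to 1000 UMIs in 9.43, 21.9, 10.7 and 14.3%. In HSCs the ratios were -0.87 (-1.13 to -0.62), -1.34 (-1.63 to -1.06) and -1.38 (-1.65 to -1.12), all below WT. The 58 HSCs with few EC markers had 815, 156, 224 and 528 CPM, from 102, 7, 14 and 53 UMIs, and WT remained the highest. Past 2-fold, the HSC ratio held under 9 of 10 settings for TAZKO (-1.86 to -0.24) and 7 of 10 for DKO (-1.84 to -0.36).

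Ccn2 in KCs followed the EC markers. All KCs together gave ratios of -0.46 (-0.69 to -0.22), -3.65 (-4.35 to -3.03) and -1.18 (-1.47 to -0.90). KCs with at least 8 EC markers measured 98.1, 64.5, 8.57 and 32 CPM, and KCs with at most 4 measured 0.658, 0.958, 0.578 and 0.571 CPM, near the level of HCs. In the latter group, which holds 457, 479, 992 and 550 KCs, the ratios were 0.54 (-1.59 to 3.13), -0.19 (-3.09 to 2.71) and -0.20 (-3.10 to 2.70), and the 3 intervals span 0. The DKO ratio was also 0.080 when the 8% of cells with the highest Scrublet doublet scores were left out. As a share of the level in the 4526 ECs with few HSC and KC markers, Ccn2 in all KCs stood at 27.2, 18.6, 18 and 35.2%, beside medians of 13.5, 16.4, 13.6 and 20.4% over the EC markers. In KC barcodes with EC markers, Ccn2 of KCs and Ccn2 of ECs cannot be told apart.

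Tgfb2 (ENSMUSG00000039239, chr1:186622792-186705989, minus strand) encodes a secreted ligand of the TGF-beta family. Only 439 of its UMIs lay in kept cells, too few for the comparisons in ECs, HCs, HSCs and KCs. It measured 44.4, 120.4, 6.67 and 50.7 CPM in BECs and 50.6, 21.3, 37.3 and 165 CPM in cluster 21. MACs, 141, 443, 134 and 491 cells, had 44.2, 6.99, 21.6 and 1.89 CPM from 63, 38, 19 and 7 UMIs. The log2 ratios of these levels to WT were -2.66 (-3.28 to -2.06), -1.03 (-1.86 to -0.27) and -4.55 (-5.92 to -3.42). The UMIs lay in 10, 3, 1 and 2 cells, so a few MACs carry the level, and that of TAZKO rests on 1 cell. WT was also the highest library in cDCs, at 18.1, 0.80, 1.53 and 0.424 CPM, and in neutrophils, at 12.7, 0.431, 0 and 1.19 CPM, where 0 UMIs allows up to 11.1 CPM. In HSCs it was the lowest and DKO the highest, with 2.14, 2.94, 3.65 and 19.8 CPM and a DKO ratio of 3.21 (1.85 to 4.92). Of the DKO UMIs, 29 lay in HSCs with at least 8 EC markers. HSCs with few EC markers had 1 UMI in WT and 5 in DKO, and that DKO ratio, 2.64 (-0.52 to 8.20), spans 0. In HCs, Tgfb2 had 0 UMIs in WT, which allows up to 0.159 CPM, and 0.409, 0.0728 and 0.569 CPM in the other 3 libraries. The ranges of BECs, cluster 21, MACs and HSCs overlapped.

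Ankrd1 (ENSMUSG00000024803, chr19:36111961-36120099, minus strand) encodes an ankyrin repeat protein found in the nucleus and in the sarcomere of muscle cells. Of its 302 UMIs in kept cells, 97.4% were in the 120 BECs. The BEC level was 253, 225, 96.8 and 127 CPM, from 154, 101, 29 and 10 UMIs, and no other type passed 0.736 CPM in any library. The range of BECs did not overlap with that of the next type, ECs. Relative to WT, the BEC log2 ratios were -0.17 (-0.55 to 0.20), -1.39 (-2.01 to -0.81) and -0.999 (-2.09 to -0.08). In BECs with few EC markers, 21, 28, 10 and 5 cells, the levels were 446, 245, 126 and 43.8 CPM and the ratios -0.87 (-1.32 to -0.41), -1.82 (-2.88 to -0.90) and -3.35 (-6.42 to -1.45). Dropping the BECs that carry EC markers thus moved the whole YAPKO interval below 0, and the DKO value there rests on 2 UMIs. With 120 cells, BECs were not used for counts over all genes.

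**Figure D2:**
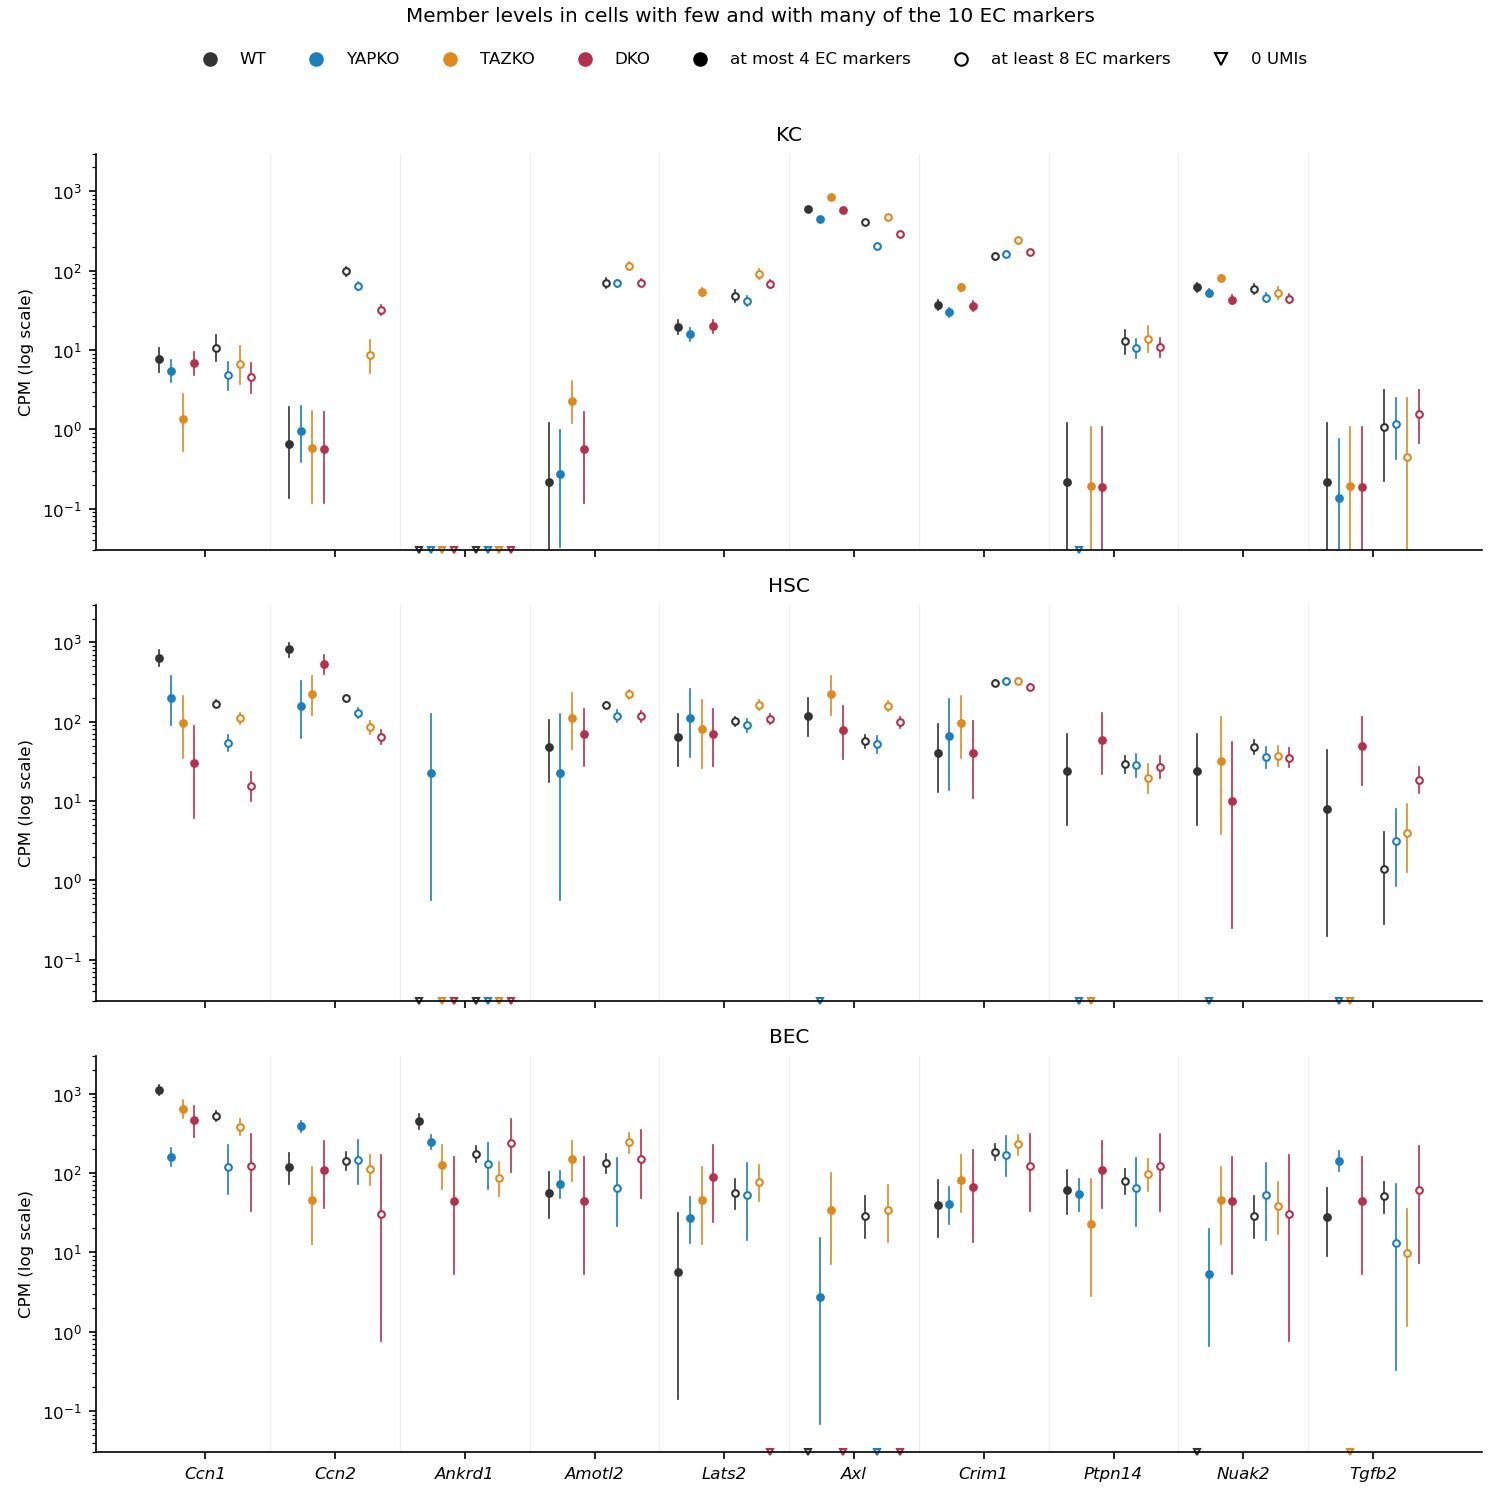
Levels of the genes (CPM, log axis, exact 95% Poisson intervals) in KCs, HSCs and BECs with at most 4 of the 10 EC markers (filled) and at least 8 (open), by library. In KCs, Ccn2, Amotl2 and Ptpn14 are near 0 in the filled points, while Axl and Nuak2 are not.

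Axl (ENSMUSG00000002602, chr7:25757273-25788705, minus strand) encodes a receptor tyrosine kinase that binds Gas6 and serves macrophages in the uptake of dying cells. KCs held 73.7% of its UMIs in kept cells, and the KC level was 530.1, 349, 742 and 435 CPM. MACs had 213, 162, 416 and 298 CPM, cluster 21 109.6, 263, 663 and 603 CPM and HSCs 63.4, 51.5, 161 and 101 CPM. ECs had 8.36, 5.36, 11.2 and 6.08 CPM and HCs 1.9, 2.87, 3.2 and 2.44 CPM. KCs, cluster 21 and MACs overlapped in range, followed by HSCs and then cDCs, each without overlap with the type before. KCs with few EC markers gave 603, 446, 855 and 574 CPM, above the level of all KCs in each library. In each of KCs, MACs, HSCs and ECs, TAZKO was the highest library and YAPKO the lowest. Ratios to WT in KCs were -0.61 (-0.67 to -0.54), 0.48 (0.43 to 0.54) and -0.28 (-0.35 to -0.22), and in MACs -0.40 (-0.59 to -0.21), 0.96 (0.74 to 1.19) and 0.48 (0.29 to 0.67). HSCs gave -0.30 (-0.73 to 0.12), 1.34 (1.04 to 1.65) and 0.67 (0.34 to 1.00), the TAZKO value being past 2-fold under 8 of 8 alternatives, with a range of 1.34 to 3.23. The 8 KC markers, led by Cd5l or C1qb and with 0 at 0, summed to 2081, 587, 3011 and 2787 CPM in the same HSCs, low in YAPKO and high in TAZKO and DKO as Axl was, and their part in the Axl ratios was not tested. Among HSCs with few EC markers Axl had 15, 0, 14 and 8 UMIs, and the TAZKO ratio was 0.90 (-0.26 to 2.06), under 2-fold and spanning 0.

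Crim1 (ENSMUSG00000024074, chr17:78200248-78376592, plus strand) encodes a membrane protein that binds bone morphogenetic proteins. It varied little over libraries in ECs, at 379, 394, 437 and 369 CPM, and measured 288, 309.7, 315 and 256 CPM in HSCs, 138, 62.4, 183 and 88.7 CPM in BECs and 81.1, 82.9, 115 and 100.4 CPM in KCs. ECs lay above HSCs with no overlap, and HSCs overlapped with cluster 21. In the 58 HSCs with few EC markers Crim1 was 39.9, 67, 96.1 and 39.9 CPM, in such KCs 37.3, 29.8, 61.6 and 35.8 CPM and in such BECs 39, 40.3, 80.5 and 65.7 CPM, lower than in all cells of each type. Relative to the ECs with few HSC and KC markers, the level in all HSCs was 75.2, 81.4, 72.5 and 70.0%, beside 61.7, 65.1, 51.9 and 51.5% for the median EC marker. The cluster named NK cells, most of them named T cells at resolution 0.8, with 5 of 2012 cells at 8 or more EC markers, had 53, 45.2, 74.7 and 62.4 CPM. HCs had 5.6, 11.3, 9.17 and 13.8 CPM, with ratios to WT of 1.01 (0.66 to 1.37), 0.71 (0.33 to 1.10) and 1.30 (0.99 to 1.62). The HC value for YAPKO was past 2-fold under 6 of 10 alternatives (0.88 to 2.38) and that for DKO under 10 of 10 (1.19 to 2.09).

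Amotl2 (ENSMUSG00000032531, chr9:102716672-102733418, plus strand) encodes a junction protein of the angiomotin family that binds YAP. It measured 195, 157, 260.5 and 152 CPM in ECs, 153, 116, 217 and 111 CPM in HSCs, 109, 71.3, 214 and 88.7 CPM in BECs and 253, 114, 327 and 94 CPM in cluster 21. By median the order was cluster 21, ECs, HSCs and BECs, and each overlapped with the next. HSCs and BECs with few EC markers had less, except YAPKO BECs, with 47.9, 22.3, 112 and 69.7 CPM in HSCs, from 6, 1, 7 and 7 UMIs, and 55.8, 72.6, 149 and 43.8 CPM in BECs, from 10, 27, 13 and 2 UMIs. Both ranges then lay below that of ECs. In cluster 21, cells with few EC markers had 306, 153, 315 and 94 CPM, more than all its cells in WT and YAPKO. KCs had 26.2, 27.8, 35.6 and 34.4 CPM, but those with few EC markers had 0.219, 0.274, 2.31 and 0.571 CPM. HCs had 6.98, 4.15, 20.7 and 8.25 CPM, and TAZKO was the highest library there, with a ratio of 1.57 (1.27 to 1.88) against -0.75 (-1.19 to -0.32) and 0.24 (-0.06 to 0.56) in YAPKO and DKO. TAZKO was also highest in ECs, HSCs, BECs and KCs.

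Lats2 (ENSMUSG00000021959, chr14:57689662-57758388, minus strand) encodes a kinase that phosphorylates YAP and TAZ. HSCs had 99.4, 90.5, 159 and 104 CPM, ECs 76.1, 84.4, 132 and 111 CPM, KCs 30.4, 26.2, 66.3 and 43.5 CPM, MACs 19.7, 15.3, 51.2 and 25.1 CPM and HCs 5.23, 7.95, 11.1 and 8.22 CPM. HSCs, ECs and cluster 21 overlapped in range. In each of the 5 types named, TAZKO had the highest level, but in HSCs with few EC markers the levels were 63.9, 112, 80.1 and 69.7 CPM, from 8, 5, 5 and 7 UMIs, with YAPKO the highest. The ratios to WT were -0.21 (-0.46 to 0.03), 1.13 (0.90 to 1.36) and 0.52 (0.29 to 0.75) in KCs and 0.60 (0.22 to 0.99), 1.08 (0.71 to 1.46) and 0.65 (0.31 to 1.00) in HCs, and the ECs gave 0.15 (0.01 to 0.29), 0.80 (0.66 to 0.94) and 0.54 (0.40 to 0.68). KCs with few EC markers measured 19.7, 15.9, 54.7 and 19.99 CPM, so TAZKO stayed the highest there.

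Ptpn14 (ENSMUSG00000026604, chr1:189728268-189876695, plus strand) encodes a tyrosine phosphatase that binds YAP. BECs had 72.4, 55.7, 76.7 and 114 CPM, ECs 34.3, 28.2, 34.4 and 31.2 CPM and HSCs 28.3, 28, 19 and 28 CPM, with overlapping ranges from BECs through cluster 21 and ECs to HSCs. Its ratios to WT stayed within 2-fold in ECs and in HSCs. KCs had 4.8, 4.69, 4.43 and 5.27 CPM, and KCs with few EC markers had 1, 0, 1 and 1 UMIs, where 0 allows up to 0.41 CPM. B cells, which carried few EC markers, ranged more widely, at 2.01, 4.71, 26.6 and 18.7 CPM from 3, 7, 51 and 18 UMIs, with TAZKO and DKO high. The UMIs lay in 1, 5, 44 and 18 cells, and the WT cell carried at least 8 EC markers. Among B cells with few EC markers WT had 0 UMIs, which allows up to 2.05 CPM. Against WT taken at 3 UMIs, YAPKO, TAZKO and DKO were 2.3, 13 and 9.12-fold higher. The lower limits of these log2 ratios were 0.51, 3.35 and 2.74.

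Nuak2 (ENSMUSG00000009772, chr1:132316126-132333488, plus strand) encodes a kinase related to AMPK. Its levels were alike in KCs, B cells, neutrophils, ECs and MACs, whose ranges overlapped in that order: KCs had 60.5, 49.8, 72.2 and 43.5 CPM, B cells 60.4, 41.8, 51.6 and 49.8 CPM and ECs 51.7, 48.4, 38 and 50.8 CPM. The cluster named NK cells had 3.96, 3.29, 4.8 and 2.33 CPM and T cells 1.7, 0, 1.09 and 0 CPM, where 0 UMIs allows up to 2.96 and 4.91 CPM. B cells were thus high, and the clusters named NK and T cells low. HCs had 2.54, 1.87, 8.22 and 1.2 CPM, with ratios of -0.44 (-1.13 to 0.24), 1.70 (1.20 to 2.22) and -1.08 (-1.73 to -0.43); TAZKO was high, and the DKO value was past 2-fold under 7 of 9 alternatives (-1.13 to -0.89). EC ratios of -0.10, -0.44 and -0.03 and KC ratios of -0.28, 0.26 and -0.47 stayed within 2-fold.

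**Figure D3:**
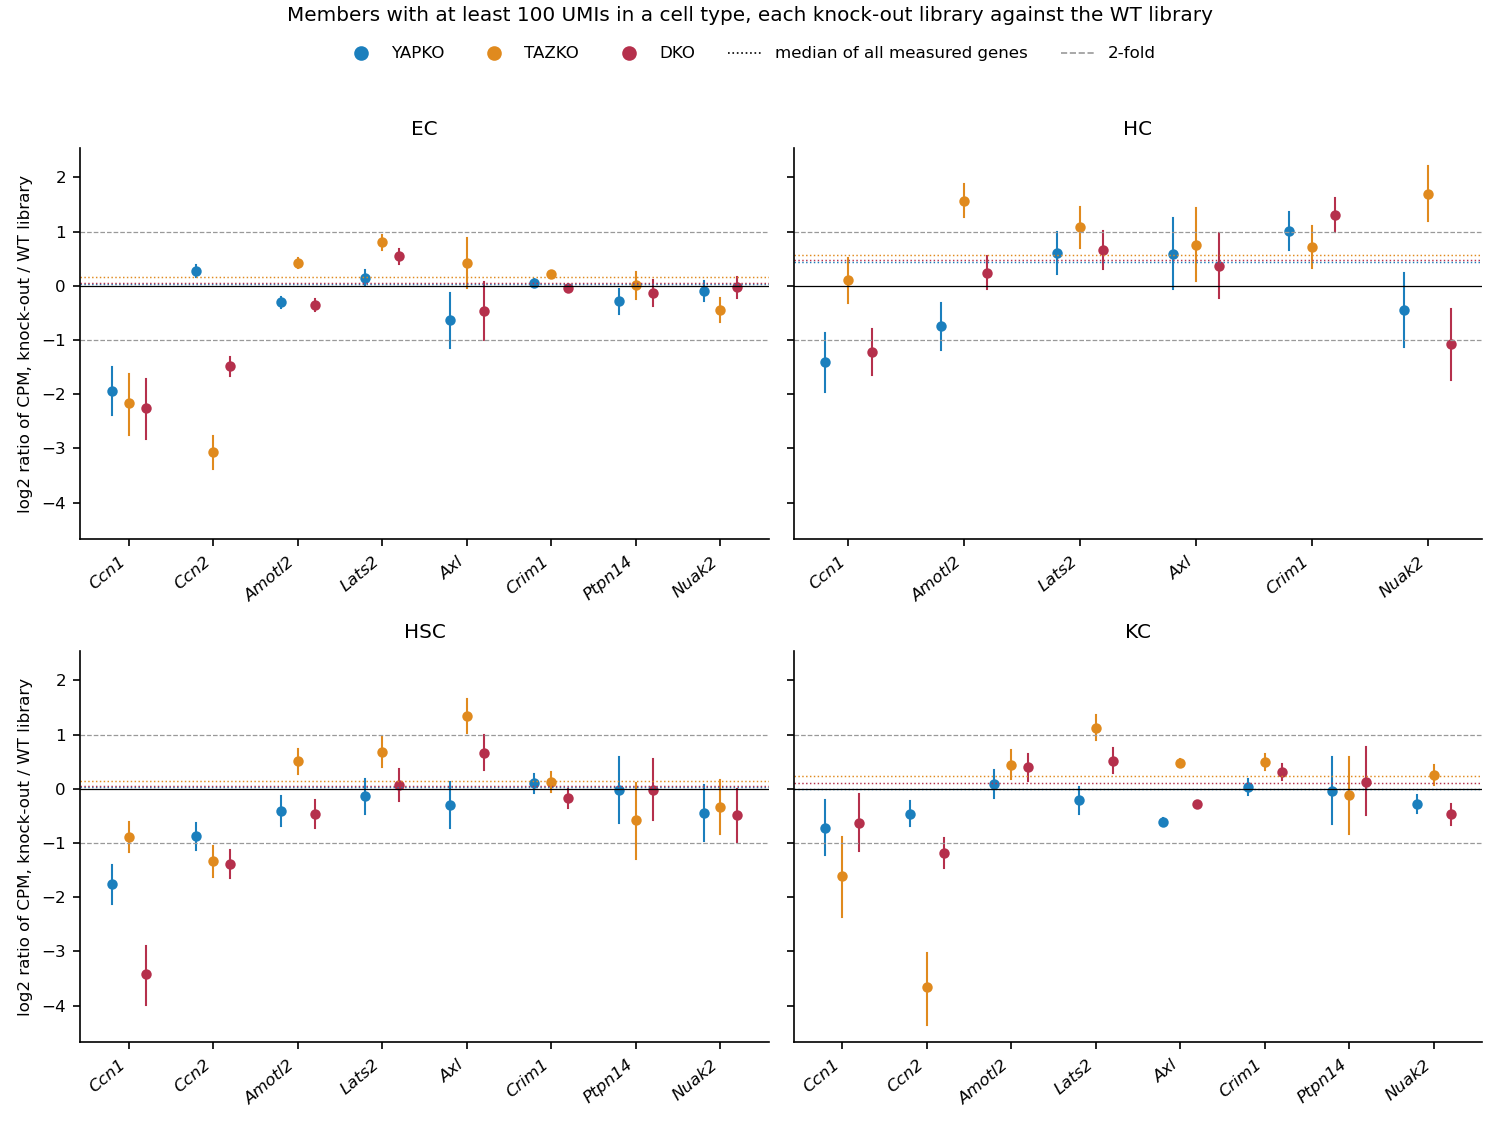
Log2 ratio to WT of each measured gene in ECs, HCs, HSCs and KCs for the 3 knock-out libraries, with exact conditional binomial 95% intervals; dashed lines mark 2-fold and dotted lines the median of all measured genes. Ccn1 in ECs lies below the lower 2-fold line for the 3 libraries, and HC values spread to both sides.

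Genes with at least 100 UMIs over the 4 libraries in a cell type were counted as past 2-fold or not, and the same share over all genes is the background. In ECs, with 11230 genes, the YAPKO library had 1 (Ccn1) of 8 lower and 0 higher, against 3.61% and 1.16% of all genes. TAZKO ECs had 2 (Ccn1 and Ccn2) of 8 lower and 0 higher, against 2.57% and 3.94% of all genes, and DKO ECs 2 (Ccn1 and Ccn2) of 8 lower and 0 higher, against 3.89% and 2.2% of all genes. As shares of 8 genes, the lower counts are above their backgrounds, but they rest on Ccn1 and Ccn2, and the other 6 measured genes stayed within 2-fold. EC medians over the measured members were -0.19, 0.11 and -0.24 on the log2 scale, beside 0.04, 0.17 and 0.04 over all genes.

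HSCs, with 8114 genes, were read the same way. YAPKO HSCs had 1 (Ccn1) of 8 lower and 0 higher, against 2.42% and 1.04% of all genes. TAZKO HSCs had 1 (Ccn2) of 8 lower and 1 (Axl) higher, against 2.38% and 4.55% of all genes, and DKO HSCs 2 (Ccn1 and Ccn2) of 8 lower and 0 higher, against 1.39% and 2.61% of all genes. The Axl value moves with the KC markers in HSCs and was under 2-fold in HSCs with few EC markers, as was Ccn2 in DKO, at -0.63 (-1.13 to -0.13). Here too the lower counts rest on Ccn1 and Ccn2, and 86.3% of HSCs held at least 8 EC markers. Medians were -0.35, -0.10 and -0.31, beside 0.04, 0.15 and 0.04 over all genes.

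Among the 11450 genes of KCs, YAPKO had 0 of 8 lower and 0 higher, against 2.38% and 2.4% of all genes, so its count is not above the background. TAZKO KCs had 2 (Ccn1 and Ccn2) of 8 lower and 1 (Lats2) higher, against 2.93% and 6.03% of all genes, and DKO KCs 1 (Ccn2) of 8 lower and 0 higher, against 1.88% and 4.77% of all genes. The Ccn2 values rest on the KCs that carry EC markers. Amotl2 and Ptpn14 were also near 0 in KCs with few EC markers. Without the KCs that carry EC markers, 5 members were measured: Ccn1, Lats2, Axl, Crim1 and Nuak2. The counts and medians over all KCs thus include genes whose UMIs lay mostly in KCs that carry EC markers. KC medians were -0.25, 0.35 and -0.08, beside 0.01, 0.24 and 0.10 over all genes. Lats2 in TAZKO remains past 2-fold in 10 of 10 alternatives, with a range of 1.13 to 1.56.

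HCs carry the deletion, and 6 of the 10 genes were measured there among 11043. YAPKO HCs had 1 (Ccn1) of 6 lower and 1 (Crim1) higher, against 0.706% and 9.04% of all genes. TAZKO HCs had 0 of 6 lower and 3 (Amotl2, Lats2 and Nuak2) higher, against 1.82% and 20.1% of all genes, and DKO HCs 2 (Ccn1 and Nuak2) of 6 lower and 1 (Crim1) higher, against 2.03% and 14.6% of all genes. The higher counts sit beside the widest backgrounds of the 4 types, and the median over all genes was 0.44, 0.57 and 0.48, against 0.08, 0.92 and 0.30 over the measured members. Weighting each HC alike in place of each UMI moved the all-gene median up by 0.22, 0.31 and 0.18 log2 units. Ccn1 in YAPKO and DKO and Nuak2 in DKO lay opposite in sign to these medians. Amotl2 and Nuak2 in TAZKO lay far above them, and Crim1 and Lats2 lay nearer. The HCs of the libraries also fell unevenly into clusters. The deeper of 2 HC clusters, with a median of 14821.5 UMIs, held 383, 556, 1142 and 939 of the 2201, 1217, 2995 and 3033 HCs. Without correction by library, 1805 of the WT HCs, 2382 of the TAZKO and 2108 of the DKO HCs lay in 3 different clusters. In the deeper cluster alone, Crim1 in YAPKO (0.88) and Ccn1 and Nuak2 in DKO (-0.89 and -0.89) fell within 2-fold, and the share of all genes past 2-fold in that cluster was not computed. The part of cell composition in the HC ratios was not tested further. Differences between cell types in which genes passed 2-fold were not tested.

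The other genes of the pathway were taken from lists. Of 12 further published YAP targets, 5 were measured in ECs, 4 in HCs, 7 in HSCs and 7 in KCs. Their EC medians were 0.10, -0.47 and 0.09, beside 0.04, 0.17 and 0.04 over all genes. In ECs 1 of 5 was past 2-fold, Igfbp3, lower in DKO, against 3.89% of all genes. HC medians were 0.56, 0.40 and 0.46, beside 0.44, 0.57 and 0.48 over all genes. Dock5 was higher in TAZKO and Gadd45a in DKO, each 1 of 4, against 20.1% and 14.6% of all genes. HSC medians were -0.04, -0.05 and 0.08, beside 0.04, 0.15 and 0.04 over all genes. Gadd45a was lower in TAZKO and Igfbp3 in DKO, each 1 of 7, against 2.38% and 1.39% of all genes. KC medians were 0.17, 0.06 and 0.62, beside 0.01, 0.24 and 0.10 over all genes. Igfbp3, 1 of 7, was lower in DKO KCs, against 1.88%. Igfbp3, which encodes a binding protein of insulin-like growth factors, measured 973, 945, 1073 and 354 CPM in HSCs and 17.7, 12.2, 12.1 and 2.78 CPM in ECs, so the DKO library stood lowest in both. In ECs with few HSC and KC markers it was 4.49, 3.31, 3.23 and 0.669 CPM, from 33, 22, 18 and 4 UMIs, and the part of HSC transcripts in the EC ratio was not tested.

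Of 16 Hippo pathway genes, 15 were measured in ECs, 14 in HCs, 13 in HSCs and 14 in KCs. Medians were -0.07, 0.33 and 0.12 in ECs, 0.65, 0.85 and 0.32 in HCs, -0.07, 0.37 and -0.17 in HSCs and 0.03, 0.52 and 0.29 in KCs. Past 2-fold were Tead4, higher in TAZKO ECs, Amot, higher in TAZKO and DKO KCs, and 9 values in HCs. Those in HCs were Yap1 lower with Wwtr1 and Tead1 higher in YAPKO, Wwtr1 lower with Yap1, Lats1, Mob1a and Nf2 higher in TAZKO, and Yap1 lower in DKO. No Hippo gene passed 2-fold in HSCs. In TAZKO HCs the 4 of 14 higher stand beside 20.1% of all genes, and in YAPKO HCs the 2 of 14 higher beside 9.04%. The 1 of 14 lower in each HC library stands beside 0.706, 1.82 and 2.03%. Tead4 in ECs stands beside 3.94%, and Amot in KCs beside 6.03% and 4.77%.

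Immediate early and dissociation genes respond within minutes to stress during cell isolation, and some of them were highest in the WT library where Ccn1 was. Fos measured 715, 107, 247 and 317 CPM in BECs, 311, 65.5, 43.1 and 109 CPM in HSCs and 269, 26.9, 21.5 and 48.5 CPM in ECs. Egr1 measured 225, 29.3, 17.6 and 25.1 CPM in ECs, and Hspa1a, a heat shock gene, 216, 4.98, 67.7 and 34.4 CPM there. In each of these, as for Ccn1, WT was the highest library. Among BECs with few EC markers, Egr1 measured 1433, 202, 1241 and 723 CPM, in the same order of libraries as Ccn1 there. Fos did not keep the order of Ccn1 among the knock-out libraries: it was highest in DKO in BECs, HSCs and ECs, where Ccn1 was highest in TAZKO, TAZKO and YAPKO. Of the 10 genes in ECs, 5, 6 and 5 were past 2-fold lower in YAPKO, TAZKO and DKO, against 3.61, 2.57 and 3.89% of all genes. Of 9 in HSCs, 5, 6 and 4 were lower, against 2.42, 2.38 and 1.39%. In HCs 3, 4 and 3 of 10 were lower, against 0.706, 1.82 and 2.03% of all genes. The 0, 0 and 3 higher there stand beside 9.04, 20.1 and 14.6%. In KCs 3, 1 and 2 were lower, against 2.38, 2.93 and 1.88%, and 0, 2 and 2 higher, against 2.4, 6.03 and 4.77%. Medians were -1.67, -1.26 and -0.85 in ECs, -2.18, -1.85 and -0.93 in HSCs, -0.50, -0.75 and 0.42 in HCs and -0.41, 0.00 and 0.19 in KCs. In ECs, HSCs, HCs and KCs alike, these medians did not keep the order of the Ccn1 ratios. Ccn1 is itself an immediate early gene in serum-stimulated cells, and the part of this response in its level in the WT library was not tested.

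**Figure D4:**
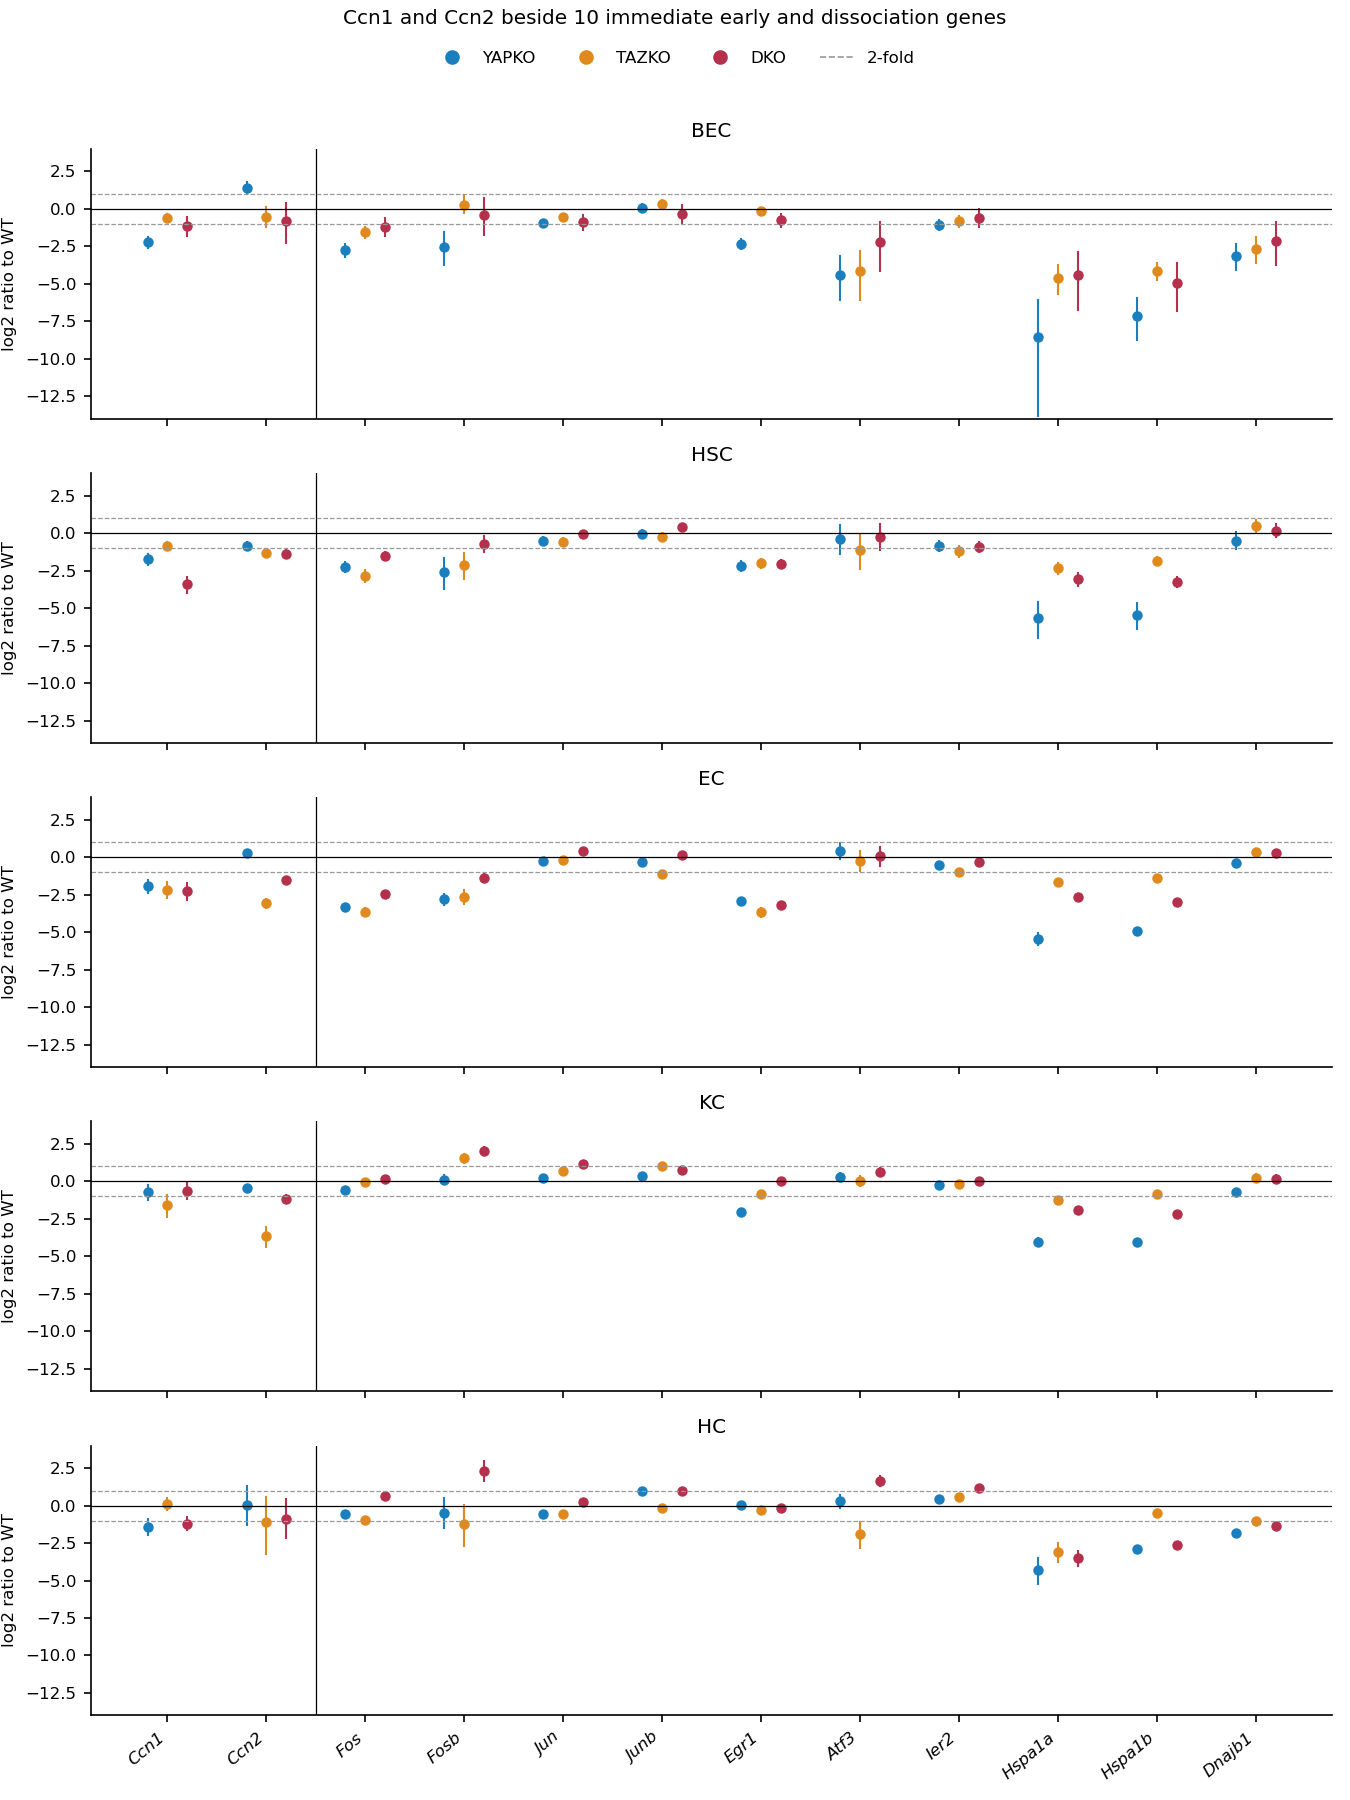
Log2 ratios to WT of Ccn1, Ccn2 and immediate early genes in BECs, HSCs, ECs, KCs and HCs for the 3 knock-out libraries, with exact 95% intervals. In ECs and HSCs, Ccn1, Fos, Egr1 and Hspa1a all lie below 0 in every library shown.

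Of 8 stellate activation genes, 5 were measured in HSCs, of which 4, 1 and 4 were past 2-fold higher in YAPKO, TAZKO and DKO. The share over all genes was 1.04, 4.55 and 2.61%. Medians of the list were 1.48, 0.58 and 1.70, beside 0.04, 0.15 and 0.04 over all genes. Col1a1, a fibrillar collagen gene, measured 3.86, 206, 16.1 and 128 CPM and Col3a1 162, 658, 243 and 665 CPM, both higher in YAPKO and DKO, where Ccn1 was lowest. Both genes are also among the markers that named the HSCs. In the 58 HSCs with few EC markers Col1a1 was 16, 3282, 16 and 976 CPM, from 2, 147, 1 and 98 UMIs. These cells, 4 in YAPKO and 14 in DKO, hold much of the 9, 280, 22 and 219 Col1a1 UMIs of all HSCs. In ECs, 3 of the 8 genes were measured, with medians of 1.13, -0.63 and 0.53, beside 0.04, 0.17 and 0.04 over all genes. Tagln and Timp1 were higher in YAPKO, against 1.16% of all genes. Timp1 was higher in DKO and Tagln lower in TAZKO, against 2.2% and 2.57% of all genes. KCs had 2 measured, with medians of 1.07, 0.11 and 1.22, beside 0.01, 0.24 and 0.10 over all genes. Tagln was higher in YAPKO and both Tagln and Loxl2 in DKO, against 2.4% and 4.77% of all genes. No gene of the list was measured in HCs.

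The share of cells with at least 1 UMI depends on depth, so each is given with its value after thinning cells to 1000 UMIs, which leaves out cells with fewer, and beside B cells. Median depths were 10958, 12805, 9101.5 and 9006 UMIs in BECs, 7760, 11349.5, 6891.5 and 10745.5 in HSCs, 5582.5, 7832.5, 4173.5 and 5767.5 in ECs, 11901, 17565, 5449 and 11502 in KCs and 2944, 2871, 2837 and 2189 in B cells. Ccn1 was found in 94.3, 65.6, 92.9 and 71.4% of BECs, or 45.3, 15.6, 42.9 and 28.6% after thinning. In HSCs the shares were 35.5, 22.2, 29.7 and 12.7%, or 10.4, 1.85, 7.78 and 0.709% after thinning, and in ECs 6.24, 4.09, 1.93 and 2.1%, or 1.97, 0.321, 0.58 and 0.419%. B cells had Ccn1 in 0, 0, 0.345 and 0% of cells, where 0 allows up to 0.701, 0.691 and 0.89%. Thinned B cells had 0, 0, 0.173 and 0%. After thinning, BECs were above B cells in every library, while the DKO share of HSCs and the YAPKO and DKO shares of ECs were under what 0 allows in the B cells of the same library.

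Ccn2 was found in 41.7, 40.7, 26.7 and 35.2% of HSCs, 20.6, 26.8, 4.19 and 9.65% of ECs and 41.5, 37.5, 32.1 and 28.6% of BECs, and in 0% of B cells in all 4 libraries. Thinned, these came to 14.3, 11.1, 7.19 and 8.51%, 8.71, 10.4, 1.03 and 3.44% and 9.43, 21.9, 10.7 and 14.3%. Ankrd1 was found in 73.6, 50, 42.9 and 42.9% of BECs, or 17, 12.5, 17.9 and 14.3% thinned, against 0, 0, 0.173 and 0% of B cells, or 0% in all 4 libraries thinned; WT led before thinning only. Axl was found in 89.7, 84.6, 85.9 and 89.5% of KCs, or 37.4, 28.5, 50.9 and 32.6% thinned, and in 49.6, 54.9, 64.2 and 68.4% of MACs, or 11.3, 12, 28.4 and 21.4% thinned, against 0.467, 0, 0.345 and 1.19% of B cells, or 0, 0, 0.173 and 0% thinned. In MACs the highest library was DKO before thinning and TAZKO after it.

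For each gene, the 3 genes with the most similar levels were found by Pearson's r of log2(CPM + 1) over 48 points, 12 cell types in 4 libraries, among 11268 genes. The points share libraries and depth, and the values are descriptions only. Nearest to Ccn1 were Bicc1 (0.904), Gata6 (0.901) and Emp2 (0.899), and nearest to Ccn2 Serpinh1 (0.931), Mdfi (0.929) and Grb10 (0.925). Ankrd1 was most like Cldn7 (0.9455), Pdzk1ip1 (0.906) and Fmo2 (0.888), Amotl2 like Myo10 (0.971), Nr2f2 (0.968) and Tjp1 (0.966), and Crim1 like Tanc1 (0.947), Peak1 (0.933) and Ehd3 (0.932). Nearest to Axl were Adgre4 (0.939), Gm10134 (0.926) and Adgre1 (0.923), to Lats2 Exoc5 (0.938), Zmynd11 (0.93) and Ago3 (0.929) and to Nuak2 Rnf216 (0.919), Lyn (0.906) and Lmo2 (0.904). Ptpn14 was most like Sptan1 (0.869), Tead2 (0.869) and Kansl1l (0.865), among them a TEAD gene. Tgfb2 had the weakest likeness, with Ptgr1 (0.696), Anxa5 (0.687) and Cryab (0.68).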

How the data were processed

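Droplet single-cell RNA-seq (10x Genomics, 3′ chemistry) of liver cells was deposited as 4 libraries, 1 mouse per genotype, with hepatocytes and non-parenchymal cells isolated apart and mixed before loading. The authors deposited raw UMI counts per gene and barcode, made with Cell Ranger against mm10, with barcode and gene lists in the same order; the version is 6.0.1 in the submitters' notes and 4.0.0 in the matrix headers. The total UMIs per library ranged from 49022089 to 85989454. Barcodes with 500 to 6000 genes and at most 10% mitochondrial UMIs were kept.

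Counts were scaled per cell to 10000 UMIs and log-transformed, 2000 variable genes were chosen without the 10 genes or the listed pathway genes, and 20 principal components were corrected by library with a Harmony-type method. Louvain clusters (20 neighbors, resolution 0.4) were named from marker genes of 16 cell types (105 markers), and left unnamed where no list led clearly. UMIs were summed per gene, cell type and library and given as CPM with exact Poisson intervals. Ratios to WT have exact conditional binomial intervals, which cover counting error only. They were tested on counts simulated from the same Poisson model, which leaves out the clumping of UMIs in few cells. That test therefore cannot show how the intervals hold for clumped UMIs. Shares have exact Clopper-Pearson intervals. No test between genotypes was run, with 1 library each. A gene was called at 2-fold among genes with at least 100 UMIs in a cell type, and a count of 0 is given the level of 3 UMIs.

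The genes named are the 10 members, 12 other YAP targets, 16 Hippo pathway genes, 10 immediate early and dissociation genes, 8 stellate activation genes and, for each member, the 3 genes with the highest Pearson correlation over cell types and libraries. Igfbp3, Fos, Egr1, Hspa1a, Col1a1 and Col3a1 were picked from those lists for their levels after the values were seen. The members and lists were chosen with earlier results of these data known. Coordinates came from GENCODE M21 (55141 of 55488 IDs and 10 of 10 members matched) and promoter sequences from RefSeq (GRCm38.p6). Alternatives covered the cell limits, the mitochondrial limit, marker-based selection, no correction, resolution 0.8 and doublet scores. They also covered 2 other scalings, a minimum of 20 UMIs and a call at 1.5-fold. Chosen after seeing the data were leaving out cells with markers of other types and keeping 1 cluster per type. The former left out ECs with at least 3 HSC or 5 KC markers, and other cells with at least 5 EC markers. Markers of further types were not looked at in it. Software was Python 3.11.15 with numpy 2.4.6, scipy 1.17.1, pandas 2.3.3, scikit-learn 1.9.0, igraph 0.11.9, scanpy 1.11.5 and matplotlib 3.10.9.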

Additional observations from a re-analysis of the deposited data

How the results depend on the processing

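No paired analysis was possible because each genotype had 1 library. Of 22 ratios to WT past 2-fold in ECs, HCs, HSCs and KCs, the number still past 2-fold in the same direction was 22 of 22 at a mitochondrial limit of 20% and without correction by library, 21 of 22 at resolution 0.8 and with scaling free of mitochondrial and hepatocyte marker genes, 20 of 22 without the top 8% of Scrublet scores and 19 of 22 as a mean over cells. Fewer could be measured with cells selected by markers (19 of 20), with the limits of 500 and 6000 read as UMIs (9 of 12) and under the 2 alternatives chosen after seeing the data, cells with markers of other types left out (16 of 17) and 1 cluster per type (17 of 20). Read as UMIs, the limits left no BECs, MACs or cDCs, and the Ccn1 ratio in YAPKO ECs changed sign, at 0.67 against -1.93. The median ratio of the measured members was then 1.18, 1.76 and 1.38 in YAPKO, TAZKO and DKO HCs (3 genes measured), -0.99 and 0.24 in YAPKO and TAZKO HSCs (3 genes) and 0.81 in TAZKO KCs (4 genes), and the members highest in ECs, HSCs and KCs numbered 5, 3 and 1, against 2, 1 and 2. Cluster 21, which ranked above ECs for Amotl2 by median, is left out of all counts of members by highest type. With cells selected by markers, the medians were -1.32 in YAPKO HCs (5 genes), -1.69, -1.56 and -1.84 in HSCs (Ccn1, Ccn2 and Axl in 22, 8, 25 and 21 cells) and 0.72 in TAZKO KCs (5 genes), and 3 members were highest in BECs, against 5, with 2 in HSCs and 1 in KCs. Among HSCs with at most 4 EC markers, Ccn2 was the only member measured. Its ratios there were -2.38, -1.86 and -0.63 in YAPKO, TAZKO and DKO, so DKO was no longer past 2-fold. The Ccn2 ratio in DKO KCs changed sign without the top Scrublet scores, at 0.080 against -1.18. The members highest in HSCs numbered 2 at the 20% limit, 2 without correction, 2 at resolution 0.8 and 2 without the top Scrublet scores, and those highest in KCs 1 without correction, 1 without the top Scrublet scores and 1 as a mean over cells. Fewer genes were measured in each setting with a gene count given here; otherwise the cause was not tested. Depth limits Ankrd1 and Tgfb2 most, with 302 and 439 UMIs in kept cells, and BECs, with 7 DKO cells, and free RNA in droplets was not removed.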
